A study of Caenorhabditis elegans with 2 samples.

Results

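The gene atx-2 encodes the Caenorhabditis elegans homologue of human ataxin-2, and 1 gene of the 19973 annotated protein-coding genes was examined here, with 5 kb on either side. It was selected on peak signal, as the peak beside its start had the highest signal among the promoter peaks of the tagged ZTF-29 protein that lay away from small RNA genes. Its signal and rank are therefore descriptions with no test. The peaks came from chromatin immunoprecipitation with sequencing (ChIP-seq), which maps where a protein sits on the genome. Worms of strain RW12283 carry st12283[ztf-29::TY1::EGFP::3xFLAG] III, a tag inserted by CRISPR at the endogenous ztf-29 gene, and chromatin of whole mid-stage embryos was pulled down with an antibody to GFP. The embryos came from egg bleaching and are labelled with an age of 0 hour, and the chromatin was sonicated to a size range of 200 to 800 bp. There were 2 biological replicates of this 1 group, so no genotype, stage or treatment could be compared, and a possible control experiment named in the labels was not analysed here. All cells of the embryo were pooled, so a peak cannot be assigned to a tissue.

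Ataxin-2 proteins bind RNA through an Lsm-type domain and bind the poly(A)-binding protein through a short PAM2 motif. They act on the translation and stability of messenger RNAs and are found in cytoplasmic RNA granules. In the worm, ATX-2 is known for translational control in the germ line, where it works with the RNA-binding proteins GLD-1 and MEX-3, and for division of the early embryo, where it acts with SZY-20 on the size of centrosomes.

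The atx-2 gene (WBGene00000231) spans chrIII:10461389-10468051 on the + strand of ce11, which is the assembly WBcel235. The peak beside its start is shown in full because every list places its summit within this stretch. Capitals mark the copies of a 13-base near-repeat around which the summits lie. The last bases of the stretch lie past the annotated start, in coding sequence of the longest atx-2 transcript. The summit window of the weaker peak in the same intergenic stretch, on the side of the neighbouring gene ecps-1, is shown beside it. Its capitals mark CTGCGTC, a word of 7 bases at the edge of that window. The summit windows of rpl-3 and ears-2, the next promoter peaks by signal, are shown without capitals. All are on the + strand and were read from the RefSeq copy of the same assembly.
atx-2 peak (chrIII:10461244-10461420): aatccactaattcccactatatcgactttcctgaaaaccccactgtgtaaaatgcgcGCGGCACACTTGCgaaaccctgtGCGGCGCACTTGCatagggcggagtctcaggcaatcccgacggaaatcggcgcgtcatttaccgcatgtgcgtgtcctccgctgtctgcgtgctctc
ecps-1 side (chrIII:10460728-10460828): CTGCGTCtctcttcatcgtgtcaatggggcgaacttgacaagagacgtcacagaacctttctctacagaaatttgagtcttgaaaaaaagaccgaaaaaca
rpl-3 (chrIII:3867525-3867625): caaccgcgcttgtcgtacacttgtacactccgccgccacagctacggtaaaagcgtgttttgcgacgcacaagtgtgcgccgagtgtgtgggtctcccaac
ears-2 (chrIV:390437-390537): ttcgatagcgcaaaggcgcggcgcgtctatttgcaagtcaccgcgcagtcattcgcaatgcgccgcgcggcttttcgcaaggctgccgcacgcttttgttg

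The deposited data are 4 pairs of peak lists. Each pair holds every ranked candidate and a shorter list made with a limit on the irreproducible discovery rate (IDR), the expected share of peaks ranked at least as high that do not recur between the peak sets compared. Here a peak in a shorter list is called listed. Of 38705 candidates in replicate 1, 466 were listed, and of 43139 in replicate 2, 802. Both replicates together gave a conservative list of 814 peaks among 54900 candidates and a full list of 1114 among 54286. The IDR of listed peaks did not exceed 0.01, but 126 conservative, 136 full, 107 replicate 1 and 133 replicate 2 candidates at that limit were not listed. The signal is the authors' value for each peak on a scale that the sources used here do not state, so it was compared within a list and not between lists. Read depth is unknown.

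The peak beside the atx-2 start was present in 8 of 8 lists, ranked and listed. These are not 8 separate findings, as every listed peak is also in its ranked list. The conservative and full lists moreover share the same peak. In both of them it ran from 10461244 to 10461420, had a width of 177 bp, a summit at 10461327 and a signal of 305.4. In replicate 1 it ran from 10461287 to 10461409 with a summit at 10461318 and a signal of 128.5. In replicate 2 it ran from 10461274 to 10461396 with a summit at 10461311 and a signal of 171.0. The minus log10 IDR was 5 in all 4 ranked lists, the highest value that these lists give. By signal it ranked 18 of 814 listed peaks in the conservative list, 18 of 1114 in the full list, 15 of 466 in replicate 1 and 26 of 802 in replicate 2. Its position among all ranked candidates was 56 in the conservative, 56 in the full, 52 in replicate 1 and 69 in replicate 2. The peak therefore stood near the head of every list, and the replicate summits lay 7 bp apart. Among the 79 promoter peaks of the same kind that were in all 4 lists, atx-2 included, the replicate summits lay a median of 18 bp apart, with quartiles of 9.5 and 32 bp, and 17 of the 79 had a gap of at most 7 bp.

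The annotation gives atx-2 4 transcripts with 4 different starts, and the peak lay just upstream of the first. That start, of D2045.1d.1 at 10461389, is also the first base of the start codon, so no 5′ leader is annotated for it. The conservative summit lay at -62 bp from it, the replicate 1 summit at -71 bp and the replicate 2 summit at -78 bp, with negative values upstream. From the start of D2045.1a.1 at 10461628 the conservative summit lay at -301 bp. From D2045.1c.1 at 10461713 it lay at -386 bp, and from D2045.1b.1 at 10464456 at -3129 bp. The D2045.1b.1 start lies inside the gene, far downstream of the peak. Worm messenger RNAs are often trans-spliced, so an annotated 5′ end need not be where transcription begins, and the distances refer to the annotation.

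A second listed peak shared the intergenic stretch with the peak at the atx-2 start. The neighbour ecps-1 lies on the - strand (chrIII:10452753-10460551), points away from atx-2 and leaves a gap of 837 bp between both genes. It is the homologue of human ECPAS (ECM29), an adaptor and scaffold protein of the proteasome. The weaker peak ran from 10460640 to 10460915, with a summit at 10460778, -611 bp from the atx-2 start and -227 bp from the ecps-1 start. Its signal was 81.3 in the conservative list, where it ranked 613 of 814 with an IDR of 0.00310. In the replicates it was a candidate only, with a signal of 40.3 and an IDR of 0.0269 in replicate 1 and a signal of 44.8 and an IDR of 0.0298 in replicate 2. The ecps-1 side was thus listed from both replicates together and from neither alone, while the atx-2 side was listed in each.

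Downstream, atx-2 meets D2045.5 tail to tail with a gap of 6 bp (chrIII:10468058-10469624, - strand), and cul-1, the gene of a cullin scaffold of ubiquitin ligases, begins 3185 bp beyond the end of atx-2 (chrIII:10471237-10475129, + strand). A candidate between both genes had its conservative summit at 10470440, -797 bp from the cul-1 start, with a signal of 83.1. Its IDR was 0.0124 in the conservative ranking, just over the limit, and 0.00888 in the full ranking, where it was listed at rank 655. Replicate 2 listed it with a signal of 57.0 at rank 605, and replicate 1 gave a signal of 23.9 with an IDR of 0.526. Of the replicates, replicate 2 alone thus listed this site. The internal atx-2 start, that of D2045.1b.1, had a candidate with its summit 112 bp downstream, in a coding exon. That candidate had a signal of 65.5 and an IDR of 0.0999 in the conservative ranking and 0.0120 in the full ranking, and it was listed nowhere.

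In all, the window of 16663 bp held 16 conservative, 14 full, 13 replicate 1 and 15 replicate 2 candidates, of which 2, 3, 1 and 2 were listed. The strongest of the other candidates had a signal of 83.1 in the conservative and full rankings, 40.3 in replicate 1 and 57.0 in replicate 2. The atx-2 peak was 3.68, 3.68, 3.19 and 3.00 times as strong as the next in these rankings. Most candidates of the window were weak, with a median signal of 27.5 among the other 15 of the conservative ranking. The gene body itself held 8 conservative candidates, none of them listed, with a highest signal of 65.5. The conservative ranking had 9.60 candidates per 10 kb here, beside a median of 5.36 over the windows of all 19973 genes, and 8.24% of these windows were at least as dense. The same density was 8.40 in the full ranking, where 15.4% of windows were at least as dense, 7.80 in replicate 1, where 3.08% of windows were at least as dense, and 9.0 in replicate 2, where 2.40% were. No small RNA gene lay in the window. The nearest annotated snoRNA gene, H04D03.5, lay 28851 bp from the summit, the nearest tRNA gene 163415 bp away and the nearest snRNA gene, R07E5.16, 528352 bp away.

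**Figure D1:**
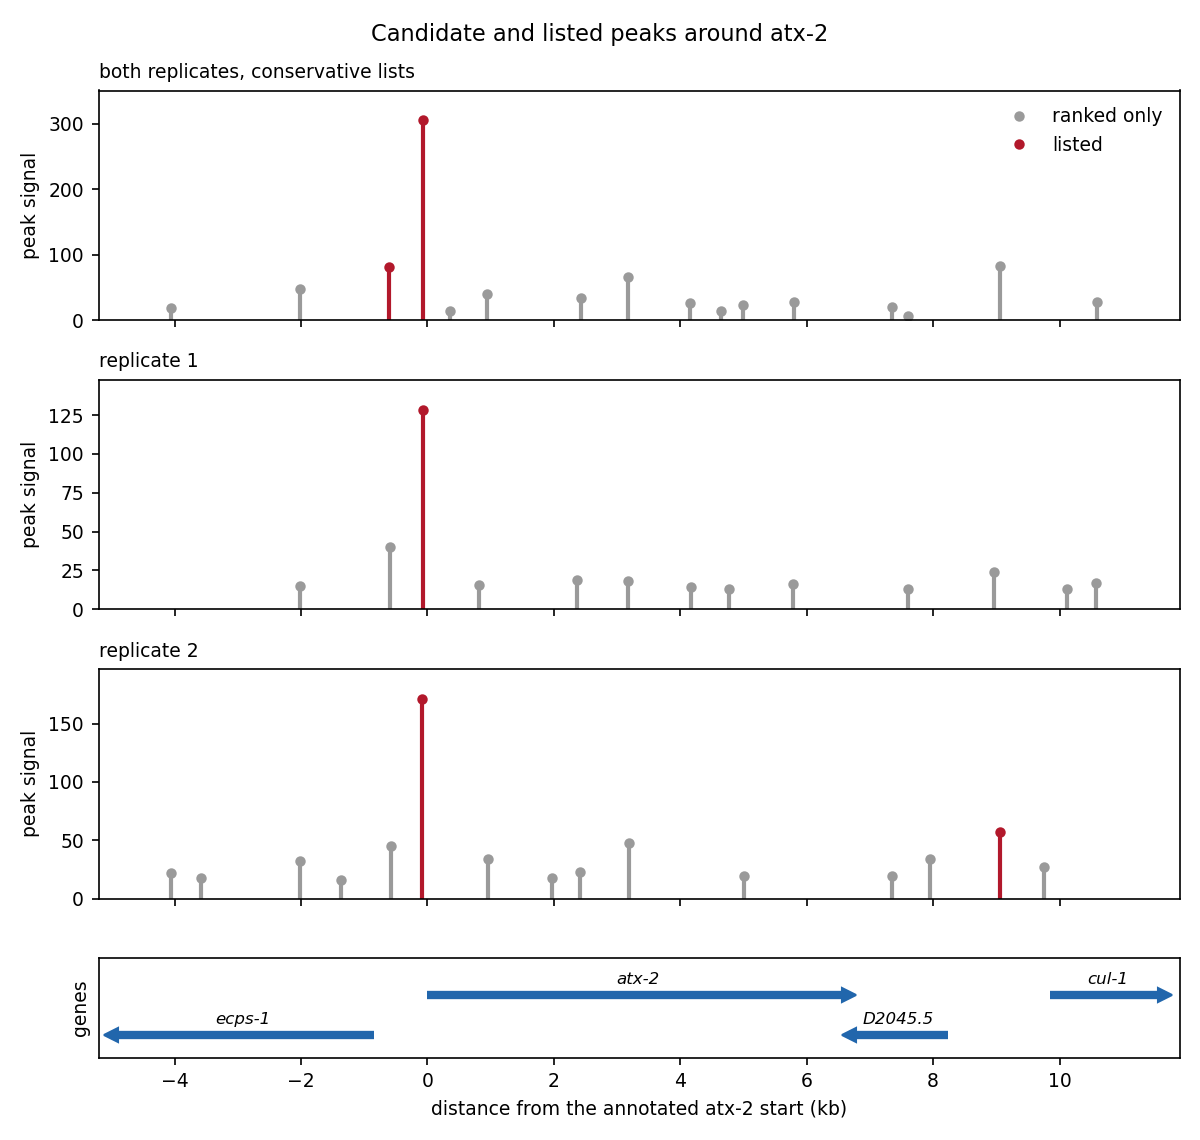
Signal of each candidate (grey) and listed peak (red) against the distance of its summit from the annotated atx-2 start in kb, for the conservative lists and each replicate, each with its own signal axis from 0, above the annotated genes with arrowheads in the direction of transcription. The peak beside the start reaches 305.4, 128.5 and 171.0 in the 3 panels, and no other candidate of the window exceeds 83.1, 40.3 and 57.0.

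The comparison class was every listed peak with its summit from 500 bp upstream to 100 bp downstream of an annotated protein-coding start and with no tRNA, snoRNA or snRNA gene within 200 bp. It held 237 conservative, 308 full, 147 replicate 1 and 175 replicate 2 peaks. Each peak is named by the nearest such start, and some summits also lay in the promoter window of another gene. Examples are ears-2 with uncp-18, rpl-15 with K11H12.8 and C16A11.2 with fbxc-44. The working name of the atx-2 peak, the strongest promoter peak near a start, held in 3 of these 4 lists. Its rank was 1 in the conservative list, the full list and replicate 1, and 2 in replicate 2. The gene was chosen by its signal, and the conservative and full lists hold the same signal for it. These 2 lists are therefore no separate support for the name. The replicate lists are none either, since the signal used for the choice was made from the same 2 replicates. The atx-2 signal was 3.20 times the class median of 95.4 in the conservative list, 2.57 times the median of 50.05 in replicate 1 and 2.46 times the median of 69.4 in replicate 2.

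The lead of atx-2 over its nearest rival was small. The next conservative peak, at rpl-3, a ribosomal protein gene, reached 293.7, which put atx-2 4.0% higher. In replicate 1 the next was ears-2, a glutamyl-tRNA synthetase gene, at 116.0, with atx-2 10.8% higher. In replicate 2 rpl-3 was first at 193.9, and atx-2 stood at -11.8% relative to it. The order of atx-2 and rpl-3 was opposite in the replicates, so it was not settled by these samples.

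Of the 17 conservative peaks with more signal than atx-2, 14 lay near a tRNA, snoRNA or snRNA gene and 3 lay away from such genes and outside the promoter window. Of those 3, all on chromosome III, the closest to a start was at K12H4.5, with its summit at -525 bp and a signal of 388.8, just outside the window. The other two lay at -1991 bp from C36E8.4, with a signal of 361.1, and 9991 bp downstream of the Y54F10AM.8 start, with a signal of 308.7. One unlisted candidate that reached the IDR limit also exceeded atx-2 inside the window. It lay -341 bp from Y80D4G.2 with a signal of 686.7. The first place of atx-2 thus rested on the width of the window and on the deposited listing.

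Below atx-2 and rpl-3 in the conservative class came ears-2 (signal 282.6), idhg-1 (246.7), a subunit gene of mitochondrial isocitrate dehydrogenase, rpl-15 (225.5), another ribosomal protein gene, and T13C5.6 (220.7). These 5 were the genes whose ranks over the 4 lists were most like those of atx-2 among the 79 shared promoter peaks. The likeness partly restates the conservative order, as the conservative and full lists give these genes the same ranks. The root mean square difference in log10 rank was 0.380 for ears-2, 0.398 for rpl-3, 0.699 for rpl-15, 0.710 for T13C5.6 and 0.741 for idhg-1. In replicate 1 the signals were 116.0 at ears-2, 109.4 at rpl-3, 104.7 at rpl-15, 99.1 at T13C5.6 and 80.0 at idhg-1, all under the 128.5 of atx-2. In replicate 2 they were 163.2, 193.9, 121.5, 155.2 and 154.0 in the same order, with rpl-3 alone above the 171.0 of atx-2. Conservative and full signals were identical for these genes, so those lists do not count as separate measurements.

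**Figure D2:**
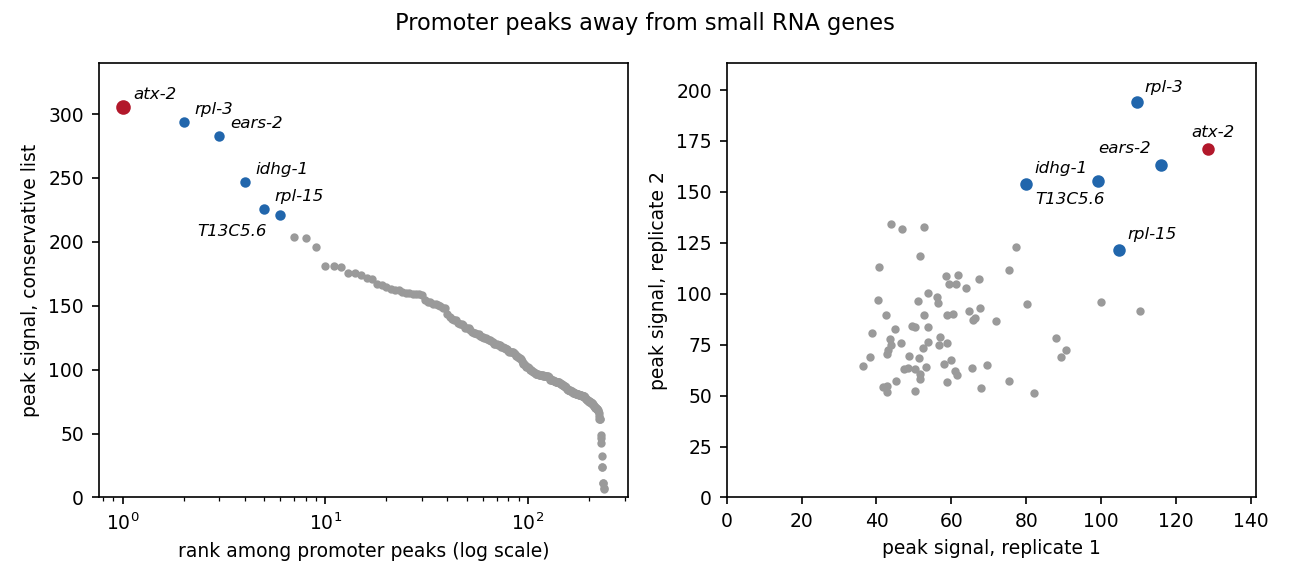
Left, peak signal against rank on a log axis for the 237 conservative promoter peaks away from small RNA genes; right, replicate 2 signal against replicate 1 signal for the 79 of them listed in all 4 lists. Each point is a peak, atx-2 is red and the next 5 genes are blue; atx-2 is first on the left and farthest right on the right, where rpl-3 is higher on the vertical axis.

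The atx-2 summit was rich in G and C. Within 50 bp on either side of the conservative summit their share was 60.4%, and it was 57.4% at the replicate 1 summit and 55.4% at the replicate 2 summit. At 300 bp upstream it was 35.6% and at 300 bp downstream 34.7%, close to the 35.4% of the whole genome and the 36.3% of the stretch between ecps-1 and atx-2. The share was thus lower at these distances on both sides of the peak. Farther out it rose again, to 53.5% at 950 bp upstream and 59.4% at 1000 bp downstream, inside ecps-1 and atx-2. Windows at the same distance from the start of all 19973 protein-coding genes had a median of 32.7%, and 0.365% of them were at least as rich as the atx-2 window. The weaker peak on the ecps-1 side had 42.6%.

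Other promoter peaks of the class were also rich in G and C at the summit, with a median of 50.5% and quartiles of 45.5% and 55.4%. The atx-2 window at the conservative summit lay above the upper quartile, and 21 of 237 class windows, atx-2 included, were at least as rich. It exceeded its own flanks by 25.2 percentage points, beside a class median of 13.9. It held 12 CG dinucleotides, beside a class median of 7, and 31 of 237 windows held at least as many. The atx-2 window held 9 at the replicate 1 summit and 8 at the replicate 2 summit. With 55.4% G and C, the replicate 2 window was level with the upper quartile of the conservative class. The part of base composition in the signal was not tested.

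**Figure D3:**
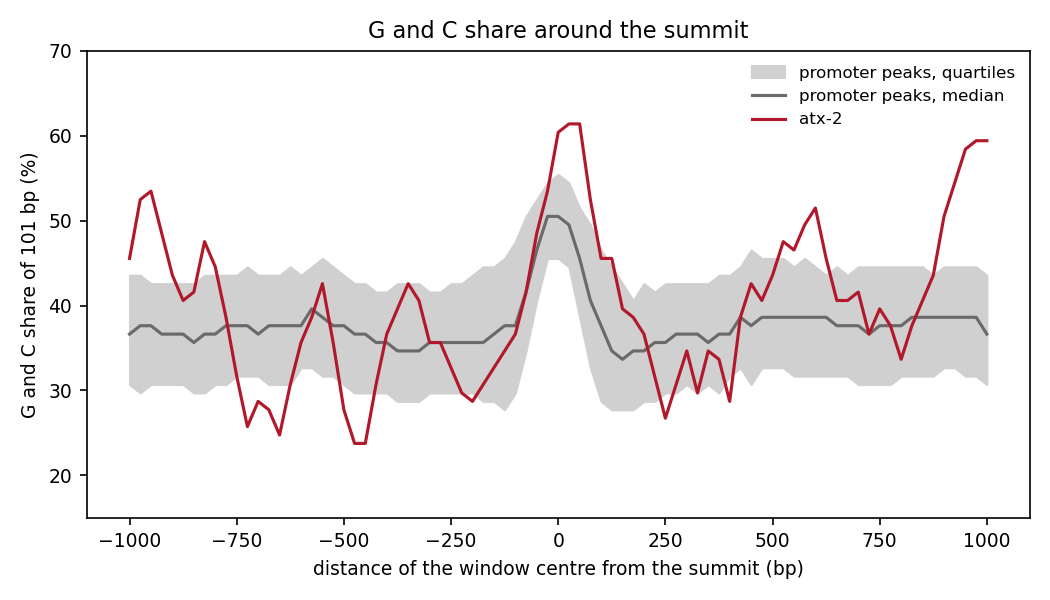
Share of G and C within 50 bp on either side of a point against the distance of that point from the peak summit on the + strand, for atx-2 (red) and for the 237 promoter peaks (grey line, median; band, quartiles). The atx-2 line is at 60.4% at the summit, where the class median is 50.5%, at 35.6% and 34.7% at 300 bp on either side, and rises to 59.4% at 1000 bp downstream.

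Most peaks of the class were wider than that of atx-2 and lay farther from a start, but those next to it by signal were not wider. Its width of 177 bp was under the usual 276 bp of the conservative list, and 17 of 237 class peaks (7.17%), atx-2 included, were narrower than usual. The 9 peaks that followed atx-2 by signal were all narrower still, from 79 to 168 bp. Its summit lay 62 bp from the nearest start, beside a class median of 202 bp with quartiles of 107 and 315 bp, and 34 of 237 peaks were nearer, among them ears-2 at -19 bp and idhg-1 at -59 bp. The nearest start was the first base of a start codon at 33 of the 237 peaks (13.9%). A start on the other strand lay within 1000 bp upstream at 88 of them (37.1%), and another listed summit lay within 1000 bp at 25 (10.5%). The atx-2 peak belonged to each of these 3 subsets.

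**Figure D4:**
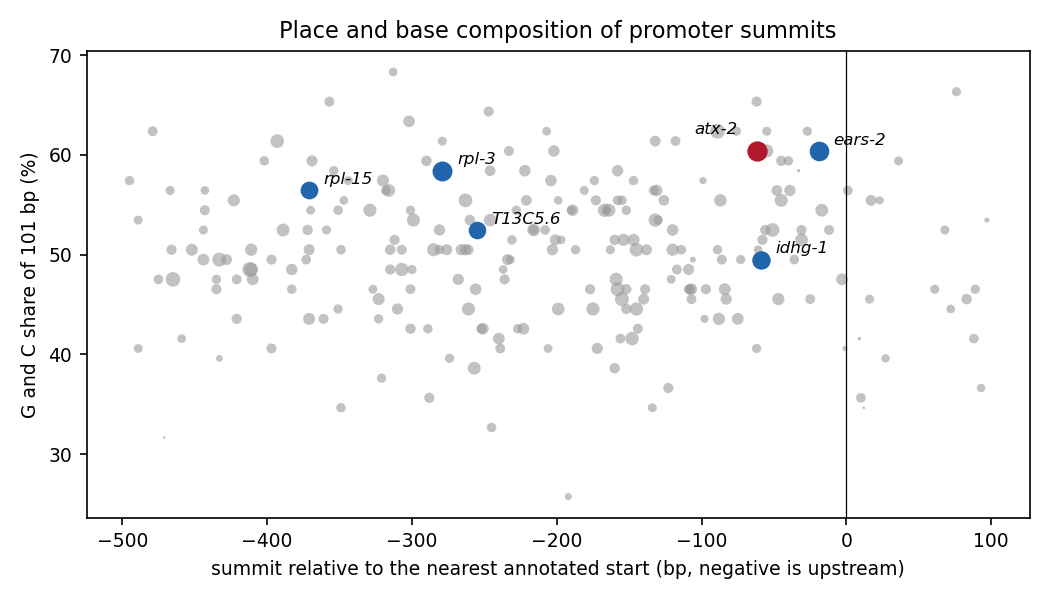
Share of G and C within 50 bp of the summit against the distance of the summit from the nearest annotated start, for the 237 conservative promoter peaks away from small RNA genes, with point area proportional to signal. The red point of atx-2 lies at -62 bp and 60.4%, and the blue points are the next 5 genes by signal.

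The near-repeat in the atx-2 summit window was found by a search for the longest pair of stretches that differ at no more than 1 base. The first copy, GCGGCACACTTGC, lies at chrIII:10461301-10461313 and the second, GCGGCGCACTTGC, at chrIII:10461324-10461336, both on the + strand. They differ by A6G, with the first copy's base before the position, which is counted from 1 at the 5′ end of the copy. The copies begin 23 bp apart and leave a spacer of 10 bp. The conservative summit fell in the second copy, the replicate 1 summit in the spacer and the replicate 2 summit in the first copy. A near-repeat of this length is not rare in the class: the median longest repeat was 9 bp, and 23 of 237 windows, atx-2 included, held at least 13 bp.

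The letters of the repeat, GCGGCNCACTTGC with any base at N, occur at 7 places in the genome on either strand, of which 5 are described here. In each of the 4 lists, 3 of the 7 lay within 50 bp of a listed summit, the pair at atx-2 and a single copy at C16A11.2. The word was read from the pair at atx-2, so the place of that pair at a listed summit was given in advance. The C16A11.2 peak lay at -120 bp from its start, with a signal of 140.0 at class rank 42 in the conservative list, 40.4 at rank 128 in replicate 1 and 96.9 at rank 25 in replicate 2. A copy at -151 bp from Y24F12A.1 was at an unlisted candidate with a conservative signal of 63.4, and the copy inside lat-1 had no candidate. A single copy was therefore found with and without a listed peak.

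Near matches of the repeat were more frequent at other promoter summits of the class than in their flanks or in gene windows at the atx-2 distance from a start. These counts are a description, since the word was read from the atx-2 window after its sequence was seen. Within 50 bp of the summit, the best match on either strand had at most 2 mismatches at 32 of the 236 other class peaks (13.6%). The same held for 3 of 472 windows placed 300 bp away on either side (0.636%), and for 62 of the 19973 gene windows at the atx-2 distance from a start (0.310%). The gene windows include that of atx-2 itself and those of the other class genes. With at most 3 mismatches the shares were 30.1%, 3.39% and 2.41%. Both comparison sets were poorer in G and C, so the shares are also given within ranges of base composition.

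Within windows of 50 to 60% G and C, 35.8% of 109 other summits had a match with at most 3 mismatches, beside 12.5% of 640 gene windows and 3 of 30 flanking windows. Within 40 to 50% the shares were 27.5% of 91, 5.42% of 3208 and 5.38% of 130. Within 60 to 70%, the bin of atx-2, they were 5 of 20 summits and 9.59% of 73 gene windows, on few windows. The letters of the word were also put in reverse order, which keeps its base composition but not its number of CG dinucleotides. In the 50 to 60% bin the reversed word matched 8.26% of summits, 7.97% of gene windows and 0 of 30 flanking windows. In the 40 to 50% bin it matched 6.59%, 3.62% and 3.85%. In the 60 to 70% bin the reversed word matched 2 of 20 summits and 17.8% of gene windows.

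**Figure D5:**
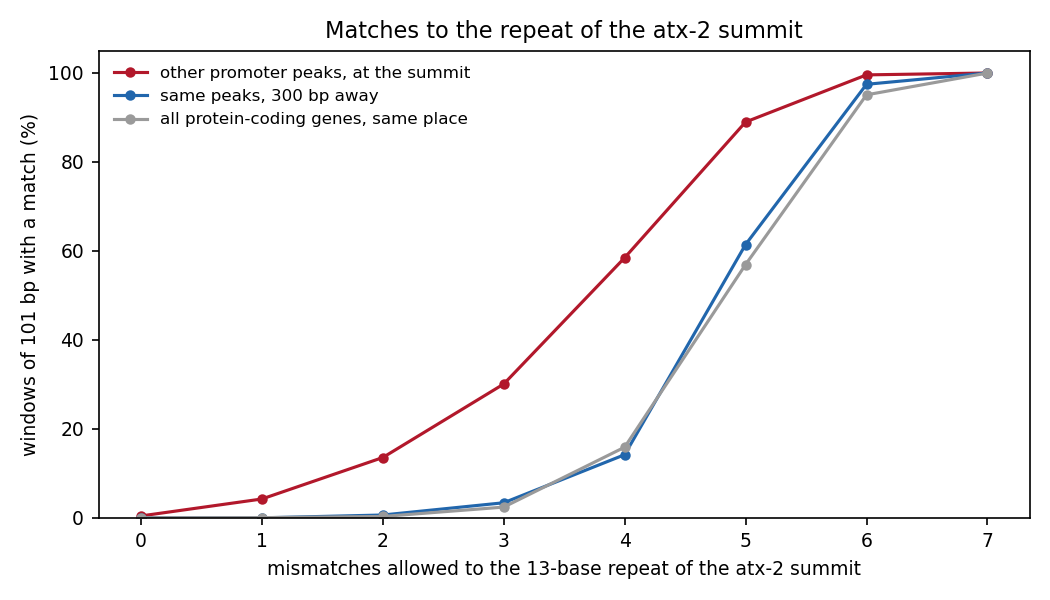
Share of windows, each reaching 50 bp to either side of its centre, with a match to the 13-base repeat of the atx-2 summit, on either strand, against the number of mismatches allowed, for the summits of the 236 other promoter peaks (red), for windows 300 bp to either side of them (blue) and for all 19973 protein-coding genes at the same distance from the start (grey). At 3 mismatches the shares are 30.1%, 3.39% and 2.41%.

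The closest matches are printed on the strand that carries the repeat, with 9 bases on either side and the 13 matched bases in capitals. They were picked for at most 1 mismatch, so the capital letters recur by choice. Besides C16A11.2, whose match is exact, 9 other class peaks had a best match with 1 mismatch, at class ranks from 12 to 217, and 8 of them are shown. Each centre lay within 27 bp of its summit, in a search that reached 50 bp to either side.
atx-2 first copy (chrIII:10461292-10461322, + strand): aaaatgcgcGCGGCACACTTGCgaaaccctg
atx-2 second copy (chrIII:10461315-10461345, + strand): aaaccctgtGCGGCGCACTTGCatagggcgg
C16A11.2 (chrII:4238073-4238103, + strand): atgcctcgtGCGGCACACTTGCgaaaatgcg
swsn-3 (chrIII:2768837-2768867, - strand): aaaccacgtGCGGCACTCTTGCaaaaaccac
mog-5 (chrII:5399363-5399393, + strand): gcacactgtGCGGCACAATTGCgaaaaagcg
nmad-1 (chrIII:5555108-5555138, + strand): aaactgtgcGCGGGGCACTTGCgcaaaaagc
rps-28 (chrIV:1659245-1659275, + strand): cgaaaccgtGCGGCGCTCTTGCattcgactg
Y22D7AL.10 (chrIII:1619088-1619118, + strand): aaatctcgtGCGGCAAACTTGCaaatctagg
erfa-3 (chrV:11113369-11113399, - strand): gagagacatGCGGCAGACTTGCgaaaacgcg
gtsf-1 (chrIV:16865710-16865740, + strand): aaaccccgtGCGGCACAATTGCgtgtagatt
Y39A3CL.7 (chrIII:1824694-1824724, + strand): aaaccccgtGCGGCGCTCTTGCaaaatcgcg

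Among the next 5 promoter peaks by signal, the best match had 2 mismatches at ears-2 and idhg-1, 3 at rpl-3, and 5 at rpl-15 and T13C5.6. The first 3 of these are shown in the same layout. A high signal therefore occurred with a near match and without one. The weaker peak on the ecps-1 side, at class rank 174, also had a best match with 3 mismatches.
ears-2 (chrIV:390504-390534, - strand): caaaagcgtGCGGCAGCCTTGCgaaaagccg
idhg-1 (chrIII:4568717-4568747, + strand): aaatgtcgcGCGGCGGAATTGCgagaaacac
rpl-3 (chrIII:3867584-3867614, - strand): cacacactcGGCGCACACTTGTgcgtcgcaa

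Of 10 words searched in the atx-2 window on both strands, 2 were present. The word CGCG occurred 3 times, at -29, -27 and 47 bp from the summit; it was in 46.4% of class windows and 10.4% of gene windows. The word GGGCGG, known as a GC box, occurred 1 time, at 13 bp, and was in 16.9% and 3.59%. The telomeric unit TTAGGC, the TATA box TATAAA, the E-box CACGTG, the simple repeat GAGAGA, the core TTCCCGC of the E2F site, the word TGACGT of the cyclic AMP response element and the word CTGCGTC were not in this window. CTGCGTC, marked in the ecps-1 side window, was in 8.44% of class windows and 1.55% of gene windows. The word TTTCAG of the trans-splice acceptor was absent from the conservative window. It occurred 1 time in the window of each replicate summit and in the whole peak. That occurrence is on the - strand, opposite to atx-2, so it is no acceptor for atx-2. The end shared by both copies of the repeat, CACTTGC, was in 9 of 237 class windows (3.8%), atx-2 included, and 0.786% of gene windows. This word was read from the atx-2 window, so its 2 occurrences there were given in advance. No other class window held 2. The shares of words in class and gene windows were not matched for G and C. The word GTTCGA, the core of the box B of tRNA genes, was absent at atx-2. It was present in 3.38% of class windows, beside 56.6% of the 189 conservative peaks at tRNA genes. The class leaves out summits within 200 bp of a tRNA gene, so a low share there follows from its definition.

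Genes that work with ataxin-2 were looked up among the listed peaks, and the small counts are given as a description. Of 11 worm genes known as partners of ATX-2 or of its functions, 1 had a conservative summit in the promoter window, beside 1.65% of all 19973 protein-coding genes. With a window of 1000 bp upstream 2 of the 11 had one, beside 2.28% of all genes. In the narrower window this was pab-2, a gene of the poly(A)-binding protein family, with a summit at -131 bp, a signal of 123.8 and class rank 63. It was listed in replicate 1 at 43.2 and in replicate 2 at 72.3, where 1.11% and 1.26% of all genes had a listed summit in the window. The other 10, among them szy-20, gld-1 and mex-3, had no conservative summit in the window.

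Of 36 genes of messenger RNA granules and decay, 2 had a conservative summit in the window, on the same background of 1.65%. With a window of 1000 bp upstream 5 of the 36 had one, beside 2.28% of all genes. The gene car-1, for an Lsm-domain protein of RNA granules, had a signal of 94.4 at -361 bp, and it was listed in replicate 2 at 76.1 but not in replicate 1. The deadenylase gene ccr-4 had a signal of 87.0 with its summit 1 bp downstream of the start, and it was listed in replicate 1 at 40.8 but not in replicate 2. The gene spn-4, for an embryonic RNA-binding protein, was listed in the full list with a signal of 87.0 and in replicate 2 with 56.7, beside 2.05% and 1.26% of all genes. In each list that held them, the signals of these 4 genes lay under that of atx-2. This follows from the choice of atx-2 by its signal and from its class rank of 1 or 2 in each list. It says nothing particular about these genes.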

How the data were processed

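The data are ChIP-seq peak lists on ce11 for 2 samples of a single group, labelled biological replicates 1 and 2, and for both together. The deposited signal of each peak is the authors' value on an unstated scale, and the deposited score in the ranked lists is the minus log10 of the global IDR, per the deposited values. Both were used as given. Not given in the sources used here are the aligner, the peak caller, their versions and the read depth, so no interval for depth could be computed, and how the deposited processing placed reads at repeats is unknown.

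Starts and genes came from the Ensembl release 115 annotation of WBcel235, with the mitochondrial genome left out, and sequence from the RefSeq copy of that assembly. The summit was taken as the peak start plus the deposited offset. Peaks of different lists were matched by an overlap of at least 1 bp. Across the 4 lists each peak was used in 1 match, the one with the strongest conservative peak. The range of each class, the windows and the words are given beside their values. Gene windows for base composition and words reached 50 bp to either side of a centre at the atx-2 distance from each gene's 5′ end. The conservative ranked list was identified as the one that gives every peak of the conservative list an IDR within 0.01. Overlapping peaks were kept separate.

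The gene, the comparison class and both gene lists were chosen with earlier results of these data known. The genes named were atx-2, every gene within 5 kb, the 5 class peaks on either side of it by rank (0 were above), the 5 genes with the most similar ranks over the 4 lists, and list members with a promoter peak. The genes at copies or near matches of the repeat, and those with more signal than atx-2, were named after their values were seen. The repeat, its near matches, the reversed word and the words CACTTGC and GTTCGA were also added after the data were seen. Of 39 genes named for the granule list, 36 matched the annotation. No test was made, since the gene was chosen by its signal and there is 1 group. Class assignment, ranking and the repeat search were tested on simulated data. Alternatives were other lists, windows, distances and ways to rank. The scripts ran in Python 3.11.15, with pandas 2.3.3, numpy 2.4.6 and matplotlib 3.10.9.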

Additional observations from a re-analysis of the deposited data

How the results depend on the processing

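The atx-2 peak ranked 1 in the class in the full list, with a promoter window of 200 bp upstream, with small RNA genes left out at 500 bp, with rRNA, miRNA and ncRNA genes added, with peaks near small RNA genes kept and with overlapping peaks merged. It ranked 2 with a window of 1000 bp upstream, which admits K12H4.5, and 2 when every candidate at the IDR limit was counted, which admits Y80D4G.2. Ranked by IDR it took a mean place of 2, as 3 peaks were tied at the highest value. With either replicate left out its rank ranged from 1 to 2, and its summit lay from -78 to -71 bp. The share of G and C was 62.7% within 25 bp of the summit, 54.7% within 100 bp and 55.9% over the whole peak, and with either replicate left out it ranged from 55.4% to 57.4%. There were 11.3 candidates per 10 kb with 2 kb on either side, 8.25 with 10 kb and 8.40 in the full ranking, and from 7.80 to 9.0 with either replicate left out. A promoter window of 1000 bp upstream brought 7 genes of both lists to a peak, beside 2.28% of all genes. These were 2 of the 11 partners and 5 of the 36 granule genes. The peak stayed in 8 of 8 lists under both other ways to match peaks. No paired analysis was possible because the samples form 1 group. Depth is unknown, no control was analysed, and signals of replicates are not on a known common scale, so a difference between replicates cannot be told apart from a difference in depth.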
